A study of Mus musculus with 2 samples.

Results

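The genes described here encode the sarcomere, the contractile unit of striated muscle, and the intercalated disc, the junction that couples neighbouring cardiomyocytes end to end. The list was given by name and holds 48 genes. A region of open chromatin (a peak) was counted for a gene when the deposited list assigned it to that gene's symbol, and a gene without such a region counted as having 0. By this rule 65 of 26232 distinct peaks belonged to 35 of the 48 genes, and 15351 genes in all had a peak.

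Open chromatin was mapped by ATAC-seq, an assay that uses the transposase Tn5 to tag exposed DNA. The cells were cardiac progenitors (CPCs) on day 5 of differentiation of mouse E14 Tg(Nkx2–5-EmGFP) embryonic stem cells. Both samples are of the same group, with the strain labelled C57BL/6 and no treatment or knockdown. Whether the cells of these libraries were sorted for the EmGFP reporter is not stated, so their purity is unknown. The 2 replicates were deposited as 1 list of peaks found in both, with no height, score or value per replicate, so no difference between samples was tested and the depth is unknown. Each share below is set beside the same share over all genes or all peaks, and its 95% Wilson confidence interval covers counting error over the listed genes or peaks only. The lack of a listed peak does not show that a site was closed. Of 12 cardiac progenitor markers 11 had a peak (91.7%, 64.6 to 98.5%), among them Isl1, Nkx2-5 and Gata4, compared with 62.5% of protein coding genes. Markers of other lineages were not counted beside them, so this share cannot check the label of the cells. A coding transcription start site lay inside a peak in 8 of the 12 (66.7%, 39.1 to 86.2%), compared with 55.1%, which lay within the interval, and the exceptions were Mef2c, Tbx5, Hand1 and Hand2. Hand2 was without an assigned peak.

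In the sarcomere, thick filaments of myosin slide along thin filaments of actin, tropomyosin and troponin. Titin spans from the Z-disc, where α-actinin anchors the thin filaments, to the M-band at the centre. In the heart many of these proteins have atrial, ventricular, fetal or slow skeletal isoforms encoded by separate genes. Serum response factor, MEF2, GATA, NKX2-5 and TEAD factors are known regulators of such genes.

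A peak was assigned to 35 of the 48 genes (72.9%, 59.0 to 83.4%), compared with 62.5% of 21900 protein coding genes in RefSeq. A peak with its midpoint within 1 kb of the deposited transcription start site (TSS) was found for 20 genes (41.7%, 28.8 to 55.7%), compared with 50.0% of coding genes. The background shares lay within the confidence intervals in both cases. At least 3 peaks were assigned to 9 genes (18.8%, 10.2 to 31.9%), compared with 10.3% of coding genes, which lay just inside the lower bound. Members with a peak had a mean of 1.86 peaks, against 1.71 over all genes with a peak.

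The position of the peaks differed between genes used mainly in striated muscle and genes that other tissues use as well. The division was set by hand and puts 13 members in the wider class, which are the 4 tropomyosins, Cryab, Flnc, Pdlim5, Pdlim7, Vcl, Dsp, Pkp2, Jup and Dsg2. It was set with earlier results of these data known, so the contrast is a description and no independent test of the division. In the wider class every gene had a peak, and in 13 of 13 (100%, with a lower bound of 77.2%) a peak held an annotated protein coding TSS of the gene. Among the 35 striated muscle genes 22 had a peak (62.9%, 46.3 to 76.8%), close to the 62.5% over all coding genes. A coding TSS lay inside a peak in 10 of the 35 (28.6%, 16.3 to 45.1%). Over 22219 coding genes of the GENCODE annotation the share with a coding TSS inside a peak was 55.1%. This fell between the intervals of the 2 classes for that measure and outside both. By GENCODE, Tnnt2 is not among the 10 genes, though a RefSeq start of Tnnt2 lay inside a peak.

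A like order was seen in lists of related genes, which were also chosen with earlier results of these data known. Among 23 smooth or nonmuscle paralogs (such as Actb, Myh9, Myl9, Flna and Actn1) 22 had a peak, and 20 of the 22 in the annotation had a coding TSS inside one. Among 14 other junction genes (such as Cdh2, Ctnnb1 and Tjp1) 11 had a coding TSS inside a peak (78.6%, 52.4 to 92.4%), and the exceptions were Gja1, Dsg1a and Dsg3. This interval held the 55.1% over all coding genes. Of 19 paralogs of fast or embryonic skeletal muscle (such as Myh1, Mylpf, Tnnt3 and Actn3) 9 had a peak (47.4%, 27.3 to 68.3%), an interval that held the 62.5% over all coding genes. A coding TSS lay inside a peak in 3 of them (15.8%, 5.5 to 37.6%). For a coding TSS inside a peak, the interval of the skeletal paralogs overlapped that of the striated muscle members. The intervals of both stayed below those of the wider class and of the smooth or nonmuscle paralogs.

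**Figure D1:**
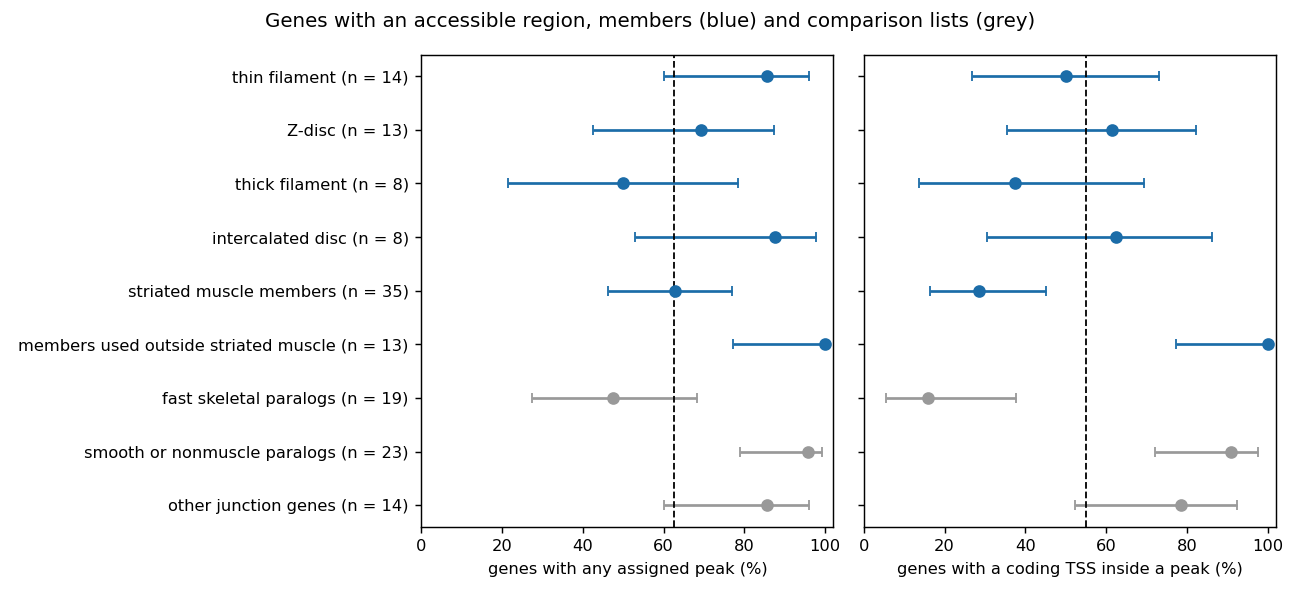
Share of genes with any assigned peak (left) and with a coding TSS inside a peak (right), in percent, with 95% Wilson confidence intervals, for classes of the 48 genes (blue) and lists of related genes (grey). Dashed lines mark all coding genes, at 62.5% and 55.1%. On the right the striated muscle members lie at 28.6% and the members used outside striated muscle at 100%. The classes of titin and the M-band (3 genes) and of myosin folding (2 genes) are not drawn.

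Promoter sequence followed the same division. A promoter was taken as the most upstream coding TSS with a flank of 500 bp on each side. It was classed as CpG-rich when its GC content reached 50% and the ratio of observed to expected CpG reached 0.6. Such promoters were found in 10 of the 13 wider genes and in 3 of the 35 striated muscle genes (Myl4, Nebl and Tmod1). Over all coding genes the share was 44.7%, which lay below the interval of the wider genes (76.9%, 49.7 to 91.8%) and above that of the striated muscle genes (8.6%, 3.0 to 22.4%). All 13 CpG-rich promoters of members overlapped a peak, compared with 89.4% over all CpG-rich promoters. Of 35 CpG-poor promoters 8 overlapped a peak (22.9%, 12.1 to 39.0%), compared with 24.9% over all CpG-poor promoters. In both promoter classes the interval of the members held the share over all genes. How far CpG content accounts for the difference between the striated and wider classes was not tested. The 8 CpG-poor members with a peak at the promoter were Actc1, Actn2, Myl7, Tpm2, Ankrd1, Nexn, Cryab and Pdlim3. Counting every coding TSS added Tnni1, Tpm3 and Mylk3 and gave 11 of 35 (31.4%, 18.6 to 48.0%), against 29.1% over all.

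Of the 35 genes with a peak, 12 had distal peaks only, meaning beyond 1 kb of the assigned TSS and holding no coding TSS (34.3%, 20.8 to 50.8%). Over all genes with a peak this share was 23.1%, within the interval. All 12 were striated muscle genes: Acta1, Myl2, Tnnt1, Tnni1, Tnni3, Ttn, Mybpc3, Myom2, Ldb3, Xirp1, Xirp2 and Unc45b. For Tnni1 this depends on the assigned TSS, since its peak at 1192 bp lay 871 bp from the nearest GENCODE coding TSS, without holding it. A further 13 had both a peak over their own TSS and another peak, and 9 had peaks over their own TSS only. In Tnnt2 the peak near the deposited TSS held no coding start of GENCODE, although it held a RefSeq start.

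**Figure D2:**
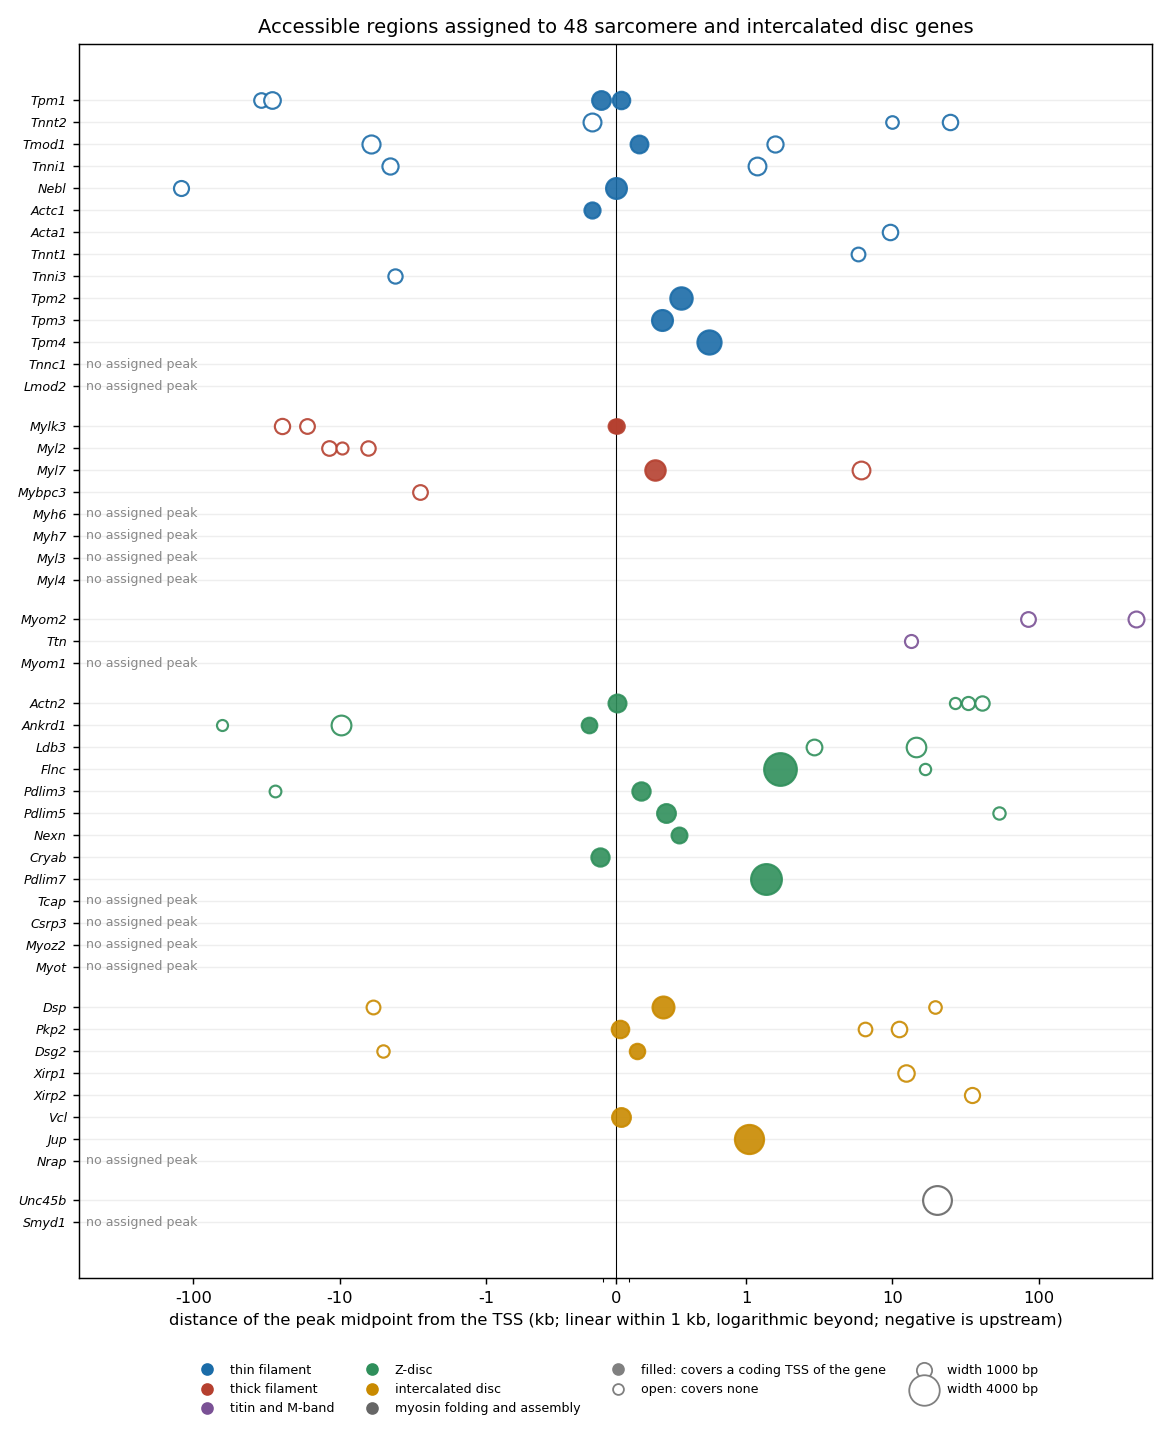
Every peak assigned to the 48 genes, 1 row a gene, at the signed distance of its midpoint from the deposited TSS in kb (linear within 1 kb, logarithmic beyond, upstream to the left). Circle area is proportional to width, colour gives the role, and filled circles hold an annotated coding TSS of the gene. The 13 genes without an assigned peak are marked, and Flnc, Pdlim7, Jup and Unc45b carry the 4 widest peaks.

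By role, 12 of 14 thin filament genes had a peak, 9 of 13 Z-disc genes, 4 of 8 thick filament genes, 2 of 3 genes of titin and the M-band, 7 of 8 intercalated disc genes and 1 of 2 myosin folding genes. The intervals of these classes overlapped widely, from 21.5 to 78.5% for the thick filament and from 60.1 to 96.0% for the thin filament. Over all coding genes the share was 62.5%, which lay inside the interval of each class. The thin filament class includes the 4 tropomyosins of the wider class.

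A coding TSS lay inside a peak in 7 of 14 thin filament genes (50.0%, 26.8 to 73.2%), compared with 55.1% over all coding genes. Of these 7, 5 were actins or tropomyosins. Actc1, the cardiac α-actin, had a single peak of 1112 bp over both of its annotated starts (chromosome 2, 113878238 to 113879349 on mm9, midpoint at −182 bp). Acta1, the skeletal α-actin that the embryonic heart also uses, had none at its TSS, and its only peak was 9684 bp downstream, inside the annotated gene Gm20388 and 1024 bp wide. All 4 tropomyosin genes, which encode the filament that gates actin, had a peak over a coding TSS. The widths were 2145 bp in Tpm2, 1879 bp in Tpm3 and 2500 bp in Tpm4, at 497, 354 and 715 bp from the TSS, each the only peak of its gene.

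Tpm1, the main cardiac tropomyosin, had 4 peaks. Both of its promoters were covered, the upstream one by a peak of 1498 bp that held 10 of 16 annotated coding starts (chromosome 9, 66896385 to 66897882) and the internal one by a peak of 1305 bp that held the other 6 (66890985 to 66892289). These peaks were 4095 bp apart. The other pair lay upstream in intergenic sequence, at −28886 and −34699 bp, with widths of 1187 and 913 bp.

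By the GENCODE starts the troponins, the calcium-sensing complex of the thin filament, differed from the tropomyosins, which are all of the wider class. None of the 5 troponin genes had a GENCODE coding TSS inside a peak, compared with 55.1% over all coding genes. Even so, 4 of them had 7 peaks between them. These families were grouped after the values were seen, and 5 and 4 genes are too few for an order. In Tnnt2, cardiac troponin T, a peak of 1370 bp lay at −183 bp from the deposited TSS (chromosome 1, 137732044 to 137733413). That deposited TSS is upstream of the only coding start in GENCODE, from which the same midpoint is at −4723 bp. A RefSeq start of Tnnt2 lay inside this peak, 182 bp from its midpoint, while another RefSeq start lay in no peak. Tnnt2 thus had a promoter peak by the deposited TSS and by a RefSeq start, but not by GENCODE. Its other peaks were in an intron at 9983 bp (679 bp wide) and beyond the gene at 24851 bp (1018 bp wide). Tnni1, slow troponin I, had peaks in its introns at −4525 and 1192 bp, with widths of 1121 and 1351 bp. Tnni3 and Tnnt1 are neighbours on chromosome 7 and had 1 peak each. The peak of Tnnt1 was intronic at 5787 bp, and that of Tnni3 was at −4200 bp, inside 6030429G01Rik. Tnnc1, troponin C, had no assigned peak, and the nearest in the list was 9508 bp from its TSS and assigned to Sema3g.

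The other thin filament genes varied. Tmod1, which caps the pointed end, had 3 peaks within 10 kb, at −6139, 176 and 1581 bp. The last 2 of these were separated by 171 bp, the smallest of the 30 gaps between neighbouring peaks of a gene in the list and the only gap under 200 bp. Nebl, which encodes nebulette, had a peak of 1869 bp centred on the deposited TSS and a second at −121983 bp. The first held only 1 of its 6 annotated coding starts, the most upstream. The RefSeq starts of Nebl outside this peak were 60904 to 268213 bp from the nearest peak midpoint. Lmod2, which elongates the filament from the same end, had none, and the nearest peak was 67048 bp away and assigned to Wasl.

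The distal peaks of Tmod1 and Ankrd1 were the only ones of the members with a MEF2 match or a CArG box, the site of serum response factor, in their central 300 bp. The centre of the 1581 bp peak of Tmod1, in an intron (mm9, chr4:46053526-46053825, plus strand), is printed first, with the MEF2 match and a GATA match (CTTATC, the reverse complement of GATAAG) in capitals. Below it stands the centre of the intergenic peak of Ankrd1 at −9845 bp (mm9, chr19:36204030-36204329, minus strand), with the CArG box and a GATA match in capitals.
Tmod1: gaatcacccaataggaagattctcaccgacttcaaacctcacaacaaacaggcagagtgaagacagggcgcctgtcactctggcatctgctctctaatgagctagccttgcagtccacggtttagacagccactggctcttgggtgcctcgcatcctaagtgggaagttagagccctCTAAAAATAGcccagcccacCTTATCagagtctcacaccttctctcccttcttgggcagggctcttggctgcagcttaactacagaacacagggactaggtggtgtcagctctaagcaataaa
Ankrd1: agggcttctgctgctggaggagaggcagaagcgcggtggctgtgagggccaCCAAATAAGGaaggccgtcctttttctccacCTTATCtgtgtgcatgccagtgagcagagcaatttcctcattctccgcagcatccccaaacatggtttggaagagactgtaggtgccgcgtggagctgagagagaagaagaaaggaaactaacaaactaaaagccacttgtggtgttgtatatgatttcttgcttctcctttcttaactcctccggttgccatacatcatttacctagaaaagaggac

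Of the 4 larger classes the thick filament had the lowest share of genes with a coding TSS inside a peak (3 of 8, 37.5%). Its interval, 13.7 to 69.4%, overlapped the others and held the 55.1% over all coding genes. Neither Myh6 nor Myh7, the α and β cardiac myosin heavy chains that lie side by side on chromosome 14, had an assigned peak. No peak fell within the body of either gene, and those nearest to any of their coding starts were assigned to Cmtm5 for Myh6 (27000 bp downstream, past the gene end) and to Ngdn for Myh7 (−20626 bp, upstream). Of the myosin light chains, Myl7, the atrial regulatory chain, had a peak of 1783 bp over its TSS (chromosome 11, 5797591 to 5799373) and another of 1350 bp at 6103 bp. Myl2, the ventricular regulatory chain, had no peak at any of its 9 GENCODE coding starts. It had 3 upstream, in sequence that is intergenic by GENCODE, at −11888, −9691 and −6364 bp, with widths of 916, 620 and 889 bp. RefSeq starts of Myl2 lay nearer to a Myl2 peak, 1434 and 1428 bp from a midpoint, and were also in no peak. Myl3, the ventricular essential chain, had none, and the nearest peak was at −17685 bp and assigned to Pth1r. The atrial and ventricular regulatory chains thus differed in whether the TSS itself was in a peak, a comparison of 2 genes with no test.

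Myl4, the atrial essential chain, counted as 0 under the rule although peaks lay on its starts. A peak of 1433 bp assigned to the neighbour Cdc27 held the most upstream coding TSS of Myl4. A second of 939 bp, assigned to Gm11665, held internal starts, with its midpoint 26446 bp into the gene and 124 bp from the nearest of them (chromosome 11, 104437954 to 104438892). Another, of 994 bp and assigned to Itgb3, lay in the gene body.

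Mybpc3, cardiac myosin binding protein C, had 1 peak of 924 bp, placed at −2814 bp within Sfpi1. Mylk3, the cardiac myosin light chain kinase, had 4 peaks, of which a pair covered different promoters of the gene 15698 bp apart with midpoints at −10 and 9 bp from their starts, and the others lay at −16718 and −24669 bp. The peaks over the Mylk3 starts were narrow, at 811 and 903 bp, below the lower quartile of 1087 bp for peaks that hold a coding TSS.

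Titin and the M-band genes had no peak near a start. Ttn, the molecular ruler of the sarcomere, is 278568 bp long and had 1 peak, intronic and 728 bp wide, 13505 bp into the gene (chromosome 2, 76806736 to 76807463). Its centre held a match to none of the 7 motifs searched, which says only that these letters are absent from this window (mm9, chr2:76806950-76807249, minus strand, of which 53 bases are annotated coding exon).
Ttn: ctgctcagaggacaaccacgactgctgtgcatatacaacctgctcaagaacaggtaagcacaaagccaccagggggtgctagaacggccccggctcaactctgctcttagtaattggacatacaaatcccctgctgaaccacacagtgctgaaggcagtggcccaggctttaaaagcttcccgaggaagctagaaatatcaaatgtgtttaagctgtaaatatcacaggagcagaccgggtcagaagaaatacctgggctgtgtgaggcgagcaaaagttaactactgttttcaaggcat
Myom2, an M-band crosslinker, had 2 peaks, but both were far downstream at 84669 and 462288 bp, and a peak assigned to Kbtbd11 was nearer to its start at −30091 bp. Myom1 had none, the nearest being at −17188 bp and assigned to Myl12a.

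At the Z-disc, Actn2 (α-actinin 2, the crosslinker of thin filaments) had 4 peaks. The widest, of 1375 bp, held all 3 annotated coding starts (chromosome 13, 12432304 to 12433678). The others lay in introns at 26895, 33135 and 41284 bp, with widths of 536, 739 and 880 bp. The narrow peak at 26895 bp held 2 GATA matches and a TEAD match (CATTCC) in its central 300 bp (mm9, chr13:12405955-12406254, minus strand), and the peak at 33135 bp was the only distal peak of the members with TAATTA, the homeodomain core that ISL1 recognises, in its central 300 bp.
Actn2: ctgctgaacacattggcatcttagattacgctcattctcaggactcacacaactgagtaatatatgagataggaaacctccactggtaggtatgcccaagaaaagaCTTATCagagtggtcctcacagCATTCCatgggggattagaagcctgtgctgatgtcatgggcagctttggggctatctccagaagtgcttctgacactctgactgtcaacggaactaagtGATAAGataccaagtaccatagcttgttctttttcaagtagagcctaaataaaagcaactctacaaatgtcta

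Ankrd1, a stress-responsive partner of titin, had 3 peaks, at −208 bp over its TSS (1042 bp wide), at −9845 bp (1676 bp) and at −63491 bp (522 bp, the narrowest of the members). Nexn, an actin-binding protein of the Z-disc, had 1 peak of 1076 bp over its TSS, at 487 bp. The 1422 bp peak over the starts of Cryab, a small heat shock chaperone, also held a coding TSS of Hspb2. The PDZ-LIM scaffolds had 7 peaks in 4 genes. Pdlim3 had a peak of 1432 bp at 189 bp over its TSS and another of 592 bp at −27580 bp. Pdlim5 had a peak of 1508 bp at 382 bp over its TSS and another of 651 bp at 53705 bp. Pdlim7 was covered at its TSS, while Ldb3 (also called Cypher) had intronic peaks only, at 2898 and 14562 bp. No peak was assigned to Tcap, Csrp3, Myoz2 or Myot. The nearest peaks to these were 8728 bp (assigned to Pnmt), −33353 bp (E2f8), 50586 bp (Usp53) and 46482 bp (Dcp2) from a coding TSS.

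A coding TSS lay inside a peak in 5 of 8 intercalated disc genes (62.5%, 30.6 to 86.3%), compared with 55.1% over all coding genes. The 4 desmosomal ones, which are of the wider class, were all covered at the TSS. Desmosomes tie the intermediate filaments of adjacent cells together. Dsp (desmoplakin) had a peak of 2060 bp over its starts, at 362 bp, and others at −5920 and 19600 bp, with widths of 813 and 676 bp. Pkp2 (plakophilin 2) had peaks at 34, 6515 and 11199 bp, the latter pair in introns, with widths of 1310, 794 and 1033 bp. Dsg2 (desmoglein 2) had peaks at −5015 and 164 bp, with widths of 654 and 1014 bp, and Jup (plakoglobin) had 1 wide peak. Vcl (vinculin), which links actin to membranes, had 1 peak of 1514 bp over a TSS, at 42 bp. The Xin repeat genes Xirp1 and Xirp2 had 1 distal peak each, at 12409 and 35147 bp. Nrap, which assembles actin at the forming myofibril, had none, and the nearest peak in the list, assigned to Nhlrc2, was at −158489 bp, the longest such distance among the 13 genes without a peak.

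The Pkp2 peak at 11199 bp was the only 1 of the 40 distal peaks of the members with 3 kinds of motif in its central 300 bp (2.5%), compared with 4.1% of all distal peaks. In the central 500 bp 7 member peaks had at least 3 kinds (17.5%), compared with 10.7%. The 300 bp of Pkp2 (mm9, chr16:16224488-16224787, plus strand) held a TEAD match, 2 NKX2-5 matches (CACTTNA, here on the reverse strand) and an E-box (CAGCTG), in that order in capitals.
Pkp2: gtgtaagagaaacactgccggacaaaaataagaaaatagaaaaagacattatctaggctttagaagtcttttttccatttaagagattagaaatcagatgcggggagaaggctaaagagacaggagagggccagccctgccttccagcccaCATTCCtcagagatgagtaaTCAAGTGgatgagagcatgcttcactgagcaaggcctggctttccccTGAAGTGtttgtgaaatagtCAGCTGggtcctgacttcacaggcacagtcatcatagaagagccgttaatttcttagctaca

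**Figure D3:**
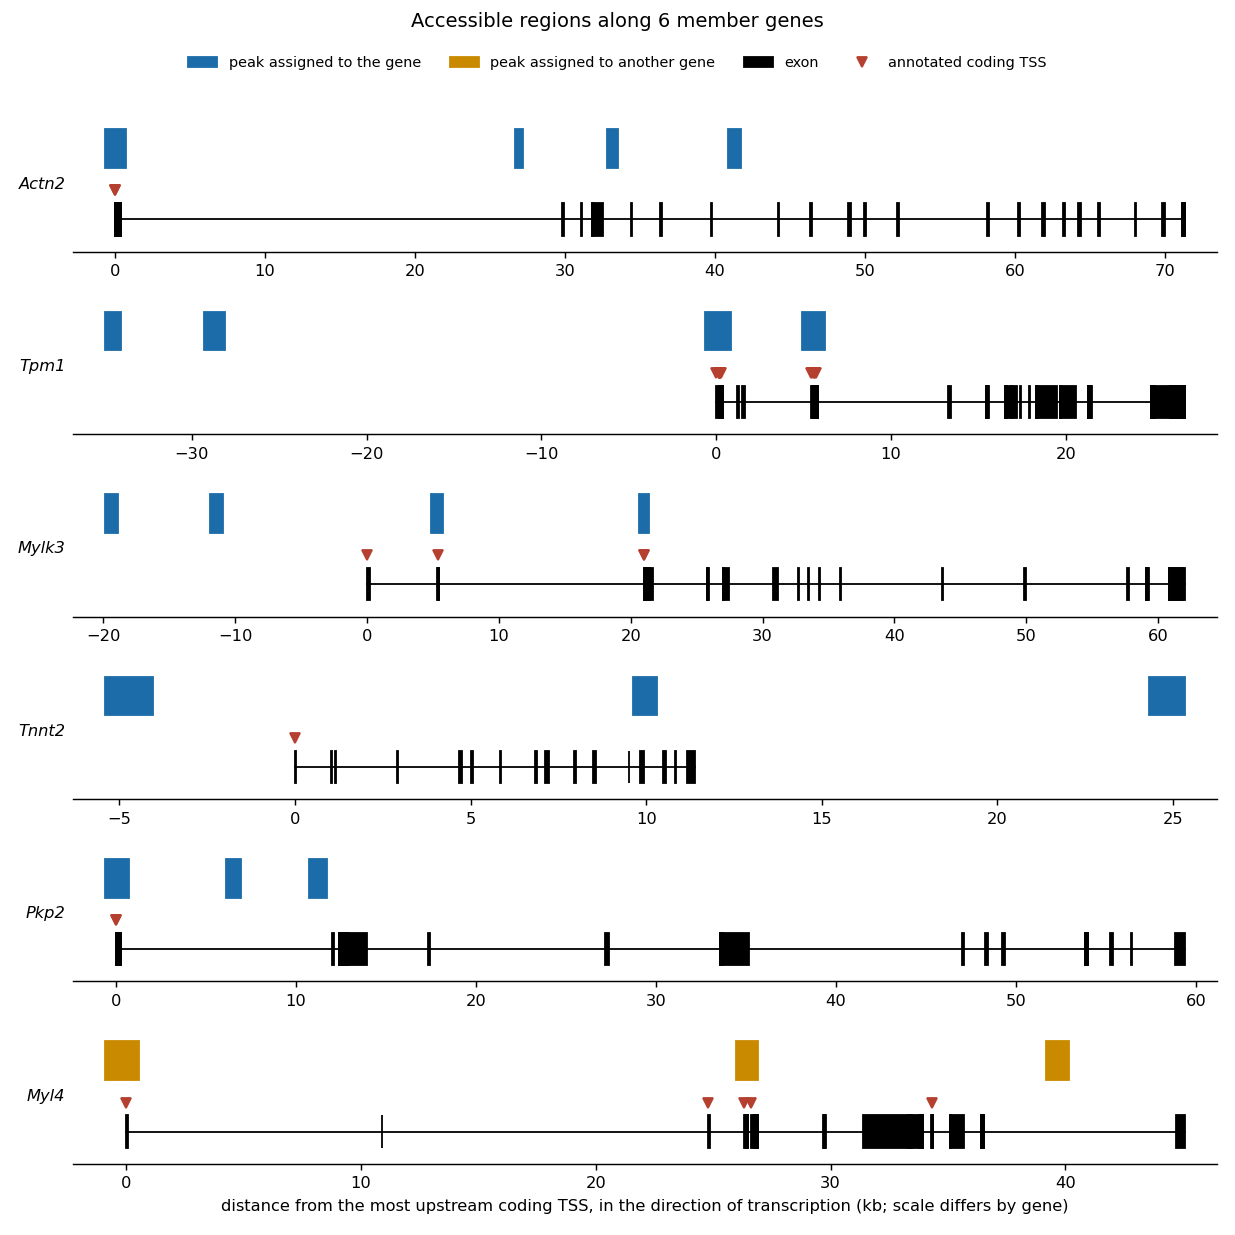
Peaks (upper boxes) above the annotated exons (black) and coding TSSs (red triangles) of 6 members, in kb from the most upstream coding TSS in the direction of transcription, with a scale of its own for each gene. Blue peaks are assigned to the gene and orange ones to another gene. Peaks cover both promoters of Tpm1 and 2 of those of Mylk3, the Tnnt2 peak lies upstream of the GENCODE coding start, and the 3 peaks of Myl4 are all assigned to other genes.

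Smyd1, a methyltransferase that acts with Unc45b in folding myosin, also counted as 0, while 3 peaks lay within its long annotated body. They were assigned to Fabp1 (939 and 896 bp wide) and to Mir8112 (2282 bp), and the nearest was at −1298 bp from one of its 6 coding starts without covering it. When a peak was counted for every gene whose body it overlapped, with 10 kb on either side, 40 of the 48 genes had a peak, in 84 pairs of gene and peak from 82 distinct peaks, since the peaks of Tnnt1 and Tnni3 counted for both neighbours. The 5 genes gained were Myh6, Myl4, Tnnc1, Tcap and Smyd1, all through peaks assigned to neighbours. The share over all coding genes by this wider rule was not computed, so the count of 40 has no background beside it.

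The peaks of the members were of ordinary width. Their median was 1059 bp (quartiles 880 and 1422 bp, range 522 to 4586 bp), compared with 1081 bp (835 and 1433 bp) over all peaks. Peaks that held a coding TSS had a median of 1465 bp in the members and 1345 bp over all, and distal peaks 926 and 900 bp. The widest were in Flnc (4586 bp, at percentile 99.9 of all peaks), Pdlim7 (4069 bp) and Jup (3644 bp). Each of these held the TSS of its gene, but the midpoint was beyond 1 kb, at 1720, 1367 and 1043 bp, so a count by midpoint leaves out these 3 promoters.

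The other wide peak, in Unc45b, differed in its sequence. It lay 20332 bp into the gene in an intron and spanned 3554 bp, of which 72.65% was G or C, and its ratio of observed to expected CpG was 1.234. Of the 12-base words in it, 77.87% occurred more than once within the peak, compared with a median of 0.27% over the member peaks and a 99th percentile of 66.22% over all peaks. The next member, the Myom2 peak at 84669 bp, was at 47.28%. Shifted by 17 bases, the Unc45b sequence matched itself at 78.3% of positions. The stretch at its centre (mm9, chr11:82745037-82745138, plus strand) shows 6 of these 17-base units, with every other unit in capitals. How such repeats affect the mapping of reads was not tested. Without this peak the median width was 1050.5 bp.
Unc45b: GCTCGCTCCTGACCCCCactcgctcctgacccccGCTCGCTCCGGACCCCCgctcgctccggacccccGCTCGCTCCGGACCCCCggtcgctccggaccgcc

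**Figure D4:**
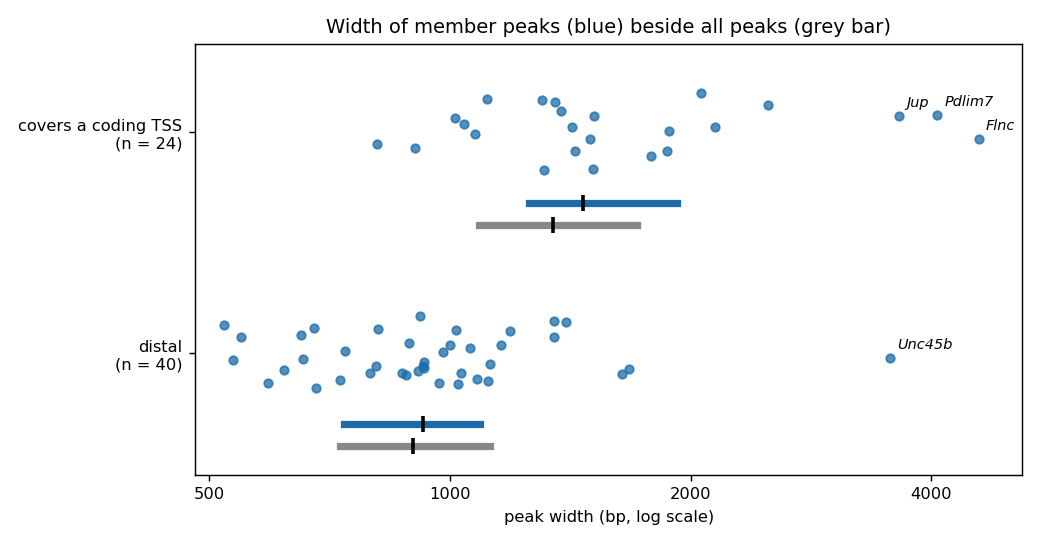
Width of the member peaks in bp on a log axis (blue points, spread vertically for visibility), for 24 peaks that hold a coding TSS and 40 distal peaks. Bars span the quartiles of the members (blue) and of all peaks of the class (grey), with a black tick at the median. The members' medians of 1465 and 926 bp lie near those of all peaks, 1345 and 900 bp, and the 4 peaks labelled by gene are wider than 3000 bp.

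By the deposited distance, 22 of the 65 peaks lay within 1 kb of the TSS (33.8%, 23.5 to 46.0%), compared with 44.9% of all peaks. The class from 1 to 10 kb held 20 peaks of 17 genes (30.8%, 20.9 to 42.8%), compared with 13.8% over all, below the interval. It includes the wide peaks of Flnc, Pdlim7 and Jup, which held the TSS of their genes, so not all of its peaks are distal. A coding TSS lay inside 24 of the 65 peaks (36.9%), compared with 44.4% of all peaks. Between 10 and 50 kb the shares were 27.7% and 24.4%. Beyond 50 kb lay 5 peaks (7.7%, 3.3 to 16.8%), compared with 17.0%, just above the interval. Peaks of the same gene, such as those of Myl2, Tnni1 and Tmod1, are not independent, and the intervals do not allow for this. Midpoints fell in introns of the gene for 29 peaks, between genes for 20, in noncoding exons for 9, in coding exons for 3 and inside another coding gene for 4.

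Motifs were searched on both strands in the central 300 bp of the 40 distal peaks and of 13879 distal peaks in all. The motif of GATA factors (GATAAG) was matched in 7 of 40 (17.5%, 8.7 to 31.9%) against 13.4%, TEAD in 8 (20.0%) against 22.8%, the E-box in 10 (25.0%) against 24.6%, and NKX2-5 in 3 (7.5%) against 12.8%. MEF2, the CArG box and TAATTA were matched in 1 peak each (2.5%), against 1.3%, 1.8% and 4.8%. All 7 background shares were within the members' intervals. At least 1 motif was present in 22 of the 40 peaks (55.0%, 39.8 to 69.3%), compared with 57.4% of all distal peaks. The GATA matches were in Actn2 (2 peaks), Dsp, Ldb3, Pkp2, Ankrd1 and Tmod1. These 7 peaks included the 1 peak each with a MEF2, CArG or TAATTA match. The share of all distal peaks with GATA and such a motif was not computed, so nothing is read from this overlap. MEF2 and TAATTA can overlap in their letters.

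Promoter windows gave a different picture. RefSeq windows from 250 bases before to 50 after a start (GRCm38.p6) were given for 40 of the 48 members, with Myom2, Tcap, Xirp1, Myot, Nexn, Cryab, Pkp2 and Dsg2 not among them. A CArG box was matched in 8 of the 40 members (20.0%, 10.5 to 34.8%), compared with 1.8% of 17492 coding genes. TEAD was matched in 16 (40.0%, 26.3 to 55.4%) against 15.5%. For MEF2 (4 genes, 10.0% against 3.3%), GATA (7 genes, 17.5% against 8.1%) and the E-box (12 genes, 30.0% against 17.4%) the background fell just below the interval. NKX2-5 (10.0% against 12.4%) and TAATTA (2.5% against 5.4%) were within it. Members had a mean of 1.32 windows, against 1.22 over all genes. A match is a run of letters and no measurement of binding.

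The CArG box was matched before the starts of Actc1, Acta1, Myl3, Myl7, Ldb3, Myom1, Nebl and Vcl, and these promoters are printed because, of the 7 motifs, the box had the highest ratio of the members' share to that over all genes. Each line gives the bases around the box on the strand of the gene, with the box in capitals. Each window was placed on mm9 by an exact match of its bases, so that the boxes could be set beside the peaks. The box lay inside a peak in 3 genes, beginning 47 bases before the start in Actc1, 61 in Myl7 and 227 in Vcl. In the other genes the box was outside the peaks. It began 73 bases before the start in Acta1 and was 9751 bp from the nearest peak midpoint, and 35 bases before in Ldb3 and 3001 bp away. The box began 85 bases before the start in Myl3 (17637 bp away, nearest to a peak of Pth1r) and 99 in Myom1 (17130 bp, nearest to a peak of Myl12a). In Nebl it began 162 bases before an internal start, 268056 bp from the nearest peak, while a different start of Nebl was inside a peak. On GRCm38.p6 the positions are chr2:114052878-114052957 (minus) for Actc1, chr11:5898799-5898878 (minus) for Myl7, chr2:17462974-17463053 (minus) for Nebl, chr14:20929148-20929215 (plus) for Vcl, chr8:123894804-123894883 (minus) for Acta1, chr9:110763558-110763637 (plus) for Myl3, chr14:34588682-34588751 (minus) for Ldb3 and chr17:71019423-71019502 (plus) for Myom1.
Actc1: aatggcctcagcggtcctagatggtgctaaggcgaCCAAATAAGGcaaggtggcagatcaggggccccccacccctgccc
Myl7: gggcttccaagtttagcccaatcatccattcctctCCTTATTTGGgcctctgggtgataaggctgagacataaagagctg
Nebl: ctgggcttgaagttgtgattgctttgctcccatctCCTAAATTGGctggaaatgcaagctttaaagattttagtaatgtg
Vcl: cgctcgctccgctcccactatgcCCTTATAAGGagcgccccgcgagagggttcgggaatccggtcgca
Acta1: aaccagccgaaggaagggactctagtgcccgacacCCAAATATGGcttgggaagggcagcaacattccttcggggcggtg
Myl3: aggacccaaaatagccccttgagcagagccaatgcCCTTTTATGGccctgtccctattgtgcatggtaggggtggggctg
Ldb3: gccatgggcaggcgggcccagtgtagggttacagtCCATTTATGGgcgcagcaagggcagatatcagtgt
Myom1: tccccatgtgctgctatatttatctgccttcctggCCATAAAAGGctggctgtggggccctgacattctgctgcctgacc

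All 53 windows of the members were found once on mm9, and 22 had their start inside a peak. The start with the motif was inside a peak in 3 of the 8 members with a CArG box, and a windowed start was inside a peak in 16 of the 32 without one. For TEAD the counts were 9 of 16 and 10 of 24. These measures are unlike, since members without the motif counted by any windowed start. By a GENCODE coding TSS inside a peak, used on both sides, the counts were 4 of 8 and 15 of 32 for the CArG box. By that measure they were 9 of 16 and 10 of 24 for TEAD. None of the 4 members with a MEF2 match (Mybpc3, Myoz2, Ttn and Xirp2) had the start with the motif inside a peak. Nor did any of the 4 with an NKX2-5 match (Csrp3, Myh7, Nrap and Smyd1). Of 36 members without each motif, 20 had a windowed start inside a peak. By the GENCODE measure the counts were 0 of 4 and 19 of 36 for each motif. All 8 members with a MEF2 or NKX2-5 match are striated muscle genes with a CpG-poor promoter, the class with few promoter peaks. The groups of 4 are too small for an order.

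**Figure D5:**
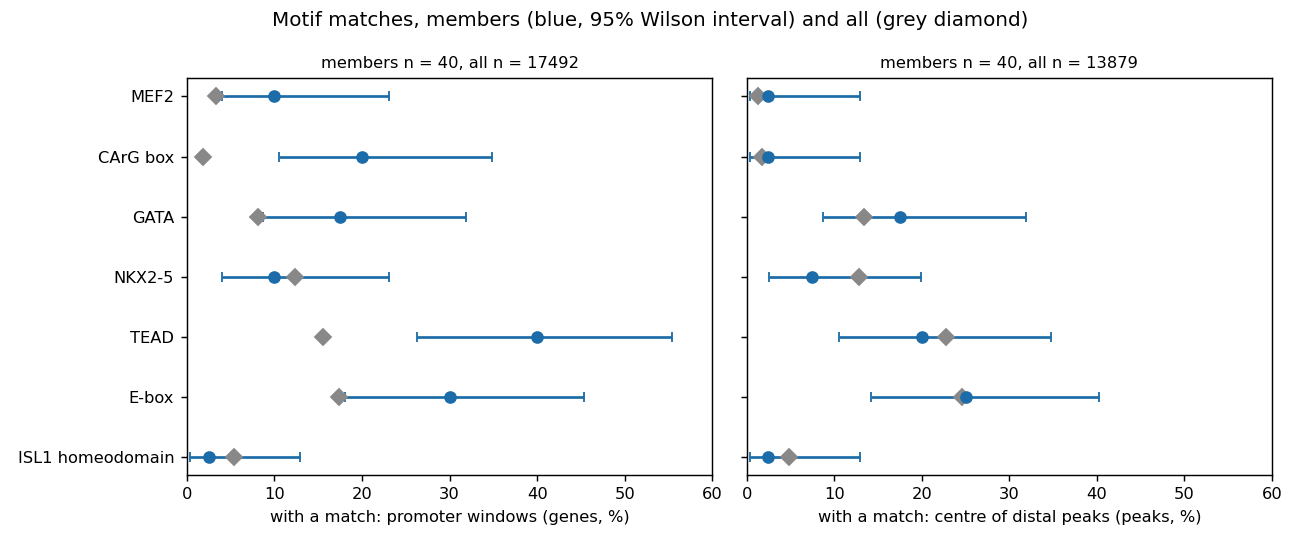
Share with a match to each of 7 motifs, in percent, for members (blue, 95% Wilson confidence interval) and for all (grey diamonds), in RefSeq promoter windows (left, 40 members of 17492 genes) and in the central 300 bp of distal peaks (right, 40 of 13879 peaks). In promoter windows the members lie at 20.0% for the CArG box and 40.0% for TEAD, against 1.8% and 15.5%, while in distal peaks every grey diamond lies within the members' interval.

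The gene lengths of members with and without a peak overlapped, with medians of 28.7 kb (quartiles 11.6 and 62.0 kb) and 25.0 kb (17.6 and 45.1 kb). Among the 13 genes without an assigned peak 1 promoter was CpG-rich (Myl4), against 12 of the 35 with one.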

How the data were processed

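ATAC-seq of 2 day 5 CPC samples was deposited by the authors as 1 peak list on mm9, whose columns hold the position of each peak, its signed distance in bp from a TSS, an accession and a symbol. By the methods of the study, bowtie2 mapped the reads, which were filtered with samtools and freed of duplicates with Picard (version 1.136 in the submitters' processing notes). Peaks were called per replicate with MACS14 using a fixed shift, cleared of ENCODE blacklist regions, and kept where replicates overlapped (bedtools 2.15). A correction for the Tn5 cut position beyond that shift is not given in the sources used here. Nearest-TSS assignment is described for the ChIP-Seq peaks. Widths depend on the caller and on depth, which is unknown.

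The 26429 lines held 26232 distinct intervals, counted once. Gene models came from GENCODE vM1 and sequence from NCBIM37, which is mm9, while RefSeq gene names and promoter windows came from GRCm38.p6. All 48 genes were found in GENCODE and in the RefSeq gene table. For 58 of the 65 member peaks the deposited TSS lay within 50 bp of a GENCODE coding TSS. Shares carry 95% Wilson intervals (scipy 1.17.1, Python 3.11.15, pysam 0.24.0). The interval test and motif search were tested on simulated data. Every member is named, with peaks described for those with a peak within 1 kb, with 3 or more peaks, or named in the study. Members, roles, lists and motifs were chosen with earlier results of these data known, and gene families were grouped after the values were seen. Isl1 knockdown cells are not analysed here.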

Additional observations from a re-analysis of the deposited data

How the results depend on the processing

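The 6 values on number, position and width of member peaks were computed under 30 alternatives, and 27 of these stayed within 1.5 times a count, within the 95% interval of the median or share, or within 1 SD of the peaks per gene. Keeping every line of the list, or only peaks of at least 500 bp, left the same 65 member peaks. These alternatives repeated the reported values and say nothing about stability. Matching by current symbol or synonym, and the share within 10 kb by the nearest annotated TSS of the gene, also gave the reported values. All of these count among the 27. The 3 that moved came from keeping only peaks wider than the median of the whole list, which by construction left 31 peaks with a median width of 1432 bp, of which 83.9% lay within 10 kb of the TSS (64.6% with all widths). Members with a peak numbered 25 under that setting and 40 by gene body with 10 kb on either side, against 35. Members with a promoter peak numbered 19 at 500 bp, 24 at 2 kb, 22 by any annotated TSS whatever the assignment, and 23 where a peak held a coding TSS, against 20 at 1 kb. The last of these and the width without the Unc45b repeat were chosen after seeing the data. Motif shares in the central 500 bp of distal peaks stayed within the interval except for TEAD, at 42.5% against 20.0%, beside 32.7% over all distal peaks. The wider window holds more sequence. No replicate could be left out, since the replicates share a list. No paired analysis was possible because the samples form 1 group.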
